A study of Mus musculus with 38 samples.

Results

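The first mitosis of the mouse embryo was examined in polysomes, by comparing two-cell embryos, in which that division is complete, with zygotes held in M-phase. The libraries were the 6 labelled as two-cell (replicates A, B and C) or zygote M (replicates A, B and C) in the polysome fraction, out of 36 libraries in the deposited table and 38 samples in the series. The series profiled 6 stages from the oocyte to the two-cell embryo, each as a polysome (P) and a non-polysome (NP) fraction. Lysates were separated on sucrose gradients into 10 fractions, of which the 5 lighter were pooled as NP and the 5 heavier as P. All embryos of both groups came from wild-type ICR females of at least 6 weeks, which were superovulated with PMSG and hCG, mated with males of the same strain and emptied of zygotes 16 h later, and all were cultured in KSOM medium. Zygote M embryos were treated with nocodazole, a drug that depolymerises microtubules, at 10 µM. For two-cell embryos the methods can be read as naming the same drug for all of them or for those in metaphase alone, and the labels of the two-cell group name no agent. The labels describe the treated samples as being in M-phase of meiosis, whereas the study's methods describe mitosis. If the two-cell group was untreated, stage and cell cycle phase cannot be told apart from the nocodazole treatment in this comparison.

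An mRNA that is being translated carries several ribosomes and sediments with the polysomes, and so the heavy part of a gradient holds the messages in use. The mouse zygote lives mainly on messages stored by the oocyte, entry into M-phase requires cyclin B and the anaphase-promoting complex ends it, and the main wave of transcription from the embryo's own genome begins at the two-cell stage. That wave opens with a group of genes that are used almost nowhere else, among them the Zscan4 family, and later takes in genes for ribosomes and other housekeeping functions.

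The 6 polysome libraries were of similar size. Their relative depth, estimated from the spacing of low values, ranged from 0.933 to 1.21, and between 8383 and 9543 genes reached 0.1 FPKM in a library (FPKM, fragments mapped to a gene scaled to its length and to the size of the library). Absolute read numbers were not used, and counting error is therefore not given. Log2 values correlated across genes at r = 0.713 to 0.751 between two-cell replicates, at 0.841 to 0.898 between zygote M replicates and at 0.614 to 0.674 between the groups. The 10 markers fixed for oocytes and early embryos were all in the table and summed to 640 to 706 FPKM in two-cell and to 670.1 to 1065 FPKM in zygote M. Of 13 cumulus and granulosa cell markers in the table, 7 were listed at 0.01 in all 6 libraries, and the others summed to 4.79 FPKM in two-cell replicate B, mainly Cyp11a1 and Hsd3b1 of steroid synthesis, and to at most 0.368 FPKM in the remaining libraries. In these bulk samples fewer cells and less RNA per cell cannot be told apart, and since FPKM are relative within a library, a gene's value also moves with the rest of the library.

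Of 7967 genes tested, 264 (3.31%) were higher and 229 (2.87%) were lower in two-cell than in zygote M polysomes, at a limma adjusted p under 0.05 and a change beyond 2-fold. Of these 493 genes, 485 had no overlap between the 3 libraries of one group and the 3 of the other. Over all genes tested, 11.5% had all two-cell values above and 22.9% had all two-cell values below those of zygote M. Protein-coding genes made up 165 of the higher and 179 of the lower calls. The median log2 change of all genes tested was -0.56, and it was -0.37 among the 1135 genes whose values in the 6 libraries averaged 10 FPKM or more. In zygote M, 40 of the higher genes were listed at 0.01 in all 3 libraries, which is the offset the table carries in place of zero, and in two-cell 25 of the lower genes were. For a gene at 0.01 in some libraries of a group, the fitted log2 change depends on that offset.

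Part of the early two-cell genes rose in polysomes after the division. Of 41 listed genes of the two-cell burst in the table, 19 passed the filter on low values, of which 9 rose (against 3.31% of all genes) and none fell, with a median log2 change of 6.29. Without the 2 genes at 0.01 throughout zygote M the median was 4.73. Over all 19 genes it was 4.37 with 0.1 FPKM and 1.87 with 1 FPKM added before the log2 step. The filter averaged all 36 libraries, the two-cell ones among them. A gene near 0.01 in other stages could thus pass it through high two-cell values. The share of rising genes and the median therefore depend in part on the filter. Tmem92, which encodes a membrane protein and marks two-cell-like cells in culture, had 24.0, 16.7 and 25.7 FPKM in two-cell replicates A, B and C and 0.423, 1.72 and 0.748 FPKM in zygote M. The lowest two-cell library thus lay well above the highest zygote M library, and the log2 change was 4.73 (SE 1.02, limma adjusted p = 0.00321). Gm8994 had 46.4, 16.3 and 12.9 FPKM in two-cell and at most 0.0799 FPKM in zygote M, a log2 change of 8.53 (SE 0.98, limma adjusted p = 6.31e-07). Gm5662 had 8.10, 5.49 and 3.13 FPKM in two-cell and was listed at 0.01 in each zygote M library (limma adjusted p = 3.56e-07).

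Other rising members of this group were more variable between replicates. Zscan4c and Zscan4f belong to a cluster of near-identical genes that protect telomeres and genome stability, and reads may be shared among the copies. Zscan4c had 9.27, 2.38 and 5.55 FPKM in two-cell and 0.141, 0.01 and 0.136 FPKM in zygote M (log2 change 6.43, SE 1.86, limma adjusted p = 0.0346), a call that was lost without any 1 of the 6 libraries (adjusted p = 0.0565 to 0.189). Zscan4f had 7.98, 2.71 and 5.16 FPKM against 0.23, 0.01 and 0.01 FPKM (limma adjusted p = 0.0123), and this call was lost without zygote M replicate B (0.0674) or C (0.0761). Usp17lb, a member of a family of deubiquitinating enzymes, had 15.5, 20.8 and 0.549 FPKM against 0.372, 0.01 and 0.0273 FPKM (limma adjusted p = 0.049). Its call was lost without two-cell replicate A (0.151) or B (0.187) or zygote M replicate B (0.207) or C (0.161). Pramef25 had 10.7, 0.891 and 10.0 FPKM and was listed at 0.01 throughout zygote M (limma adjusted p = 0.00167), and Gm4340 and Gm2016 also rose (limma adjusted p = 0.00168 and 0.000737). Not all genes of the list behaved in this way. Tcstv1 was already at 158, 74.4 and 165 FPKM in zygote M and had 85.4, 96.0 and 61.5 FPKM in two-cell (log2 change -0.65, limma adjusted p = 0.901), and the groups overlapped. Its relative Tcstv3 had 50.2, 30.2 and 42.5 FPKM in zygote M and 60.2, 72.2 and 38.2 FPKM in two-cell (limma adjusted p = 0.946). Among the members below the filter, Zfp352, a zinc finger gene of the two-cell stage, had 5.63, 5.10 and 4.37 FPKM in two-cell and was listed at 0.01 in every zygote M library. In all, 13 of the 22 members not tested had every two-cell value above every zygote M value, 7 of them with zygote M at 0.01 throughout, where 696 of all 15158 genes not tested lay above in this way, 272 of them with zygote M at 0.01.

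A core of the sequence bound by Dux, the transcription factor that switches on early two-cell genes, is shown where it was found upstream of genes that rose. The letters GATTNAATC (either strand) occurred in 88 of 32851 RefSeq promoter windows of 300 bases (0.268%, GRCm38.p6), in 2 of the 21 burst genes with a window (9.52%) and in 2 of the 107 genes called higher with a window (1.87%). These counts describe letters in a window and were not tested. In the following 29-base stretches, at chr10:104193886-104193914 (plus strand, first capital 146 bases before the annotated start of Gm4340) and chr13:120262960-120262988 (plus strand, 125 bases before that of AF067061, described with the other rising genes), the match is in capitals.
Gm4340: gattccagaaGATTGAATCtcggagttta
AF067061: aagacactaaGATTTAATCcagacattga

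Outside that list, the genes with the largest rises went from almost no signal to high levels. Rpp25 (chr9:57504026-57505449, GRCm38, plus strand), a subunit of the RNase P and MRP complexes that process tRNA and rRNA precursors, had 68.0, 60.5 and 68.9 FPKM in two-cell and 0.01, 1.94 and 0.01 FPKM in zygote M (log2 change 10.15, SE 1.47, limma adjusted p = 3.03e-05). Tnfrsf12a, the receptor for the cytokine TWEAK, had 18.96, 56.3 and 11.6 FPKM against 0.0808, 0.01 and 0.01 FPKM (10.17, SE 1.80, limma adjusted p = 0.00043). Id1, an inhibitor of basic helix-loop-helix transcription factors, had 41.8, 10.2 and 8.94 FPKM against 0.01, 0.01 and 1.27 FPKM (8.28, SE 2.02, limma adjusted p = 0.0102). The Id1 call was lost without zygote M replicate A (adjusted p = 0.0783) or B (0.0688), whereas those of Rpp25 and Tnfrsf12a were kept without any 1 library. Sertad1, which binds the cyclin-dependent kinase Cdk4, had 19.7, 50.8 and 38.2 FPKM against 0.953, 0.01 and 0.664 FPKM (limma adjusted p = 0.00043).

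Several of the top genes come in near-identical copies, between which reads could have been divided. Gm16381 and Gm2001 had almost the same values, with 122.8, 66.2 and 221 FPKM for Gm16381 in two-cell and 0.151, 0.576 and 0.171 FPKM in zygote M (limma adjusted p = 4.59e-07). B020004C17Rik had 43.1, 54.4 and 38.8 FPKM in two-cell and at most 0.157 FPKM in zygote M (limma adjusted p = 2.79e-08), and its relative B020031M17Rik had 27.7, 22.6 and 30.5 FPKM against at most 0.434 FPKM (0.00514). AF067061 had 35.9, 33.4 and 31.3 FPKM against 0.582, 0.01 and 0.0389 FPKM (limma adjusted p = 0.000572). Each of these genes was called without any 1 of the 6 libraries. Among genes listed at 0.01 in all zygote M libraries, Gm4027 had 15.03, 8.23 and 16.03 FPKM (limma adjusted p = 1.23e-06), the hormone gene Sct, which encodes secretin, had 7.24, 18.1 and 10.1 FPKM (1.32e-05), and Obox8, of the oocyte-specific homeobox family, had 4.13, 6.60 and 13.7 FPKM (5.04e-09).

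The alpha-globin gene Hba-a1 was among the top 10 by the same rule, with 43.8, 82.9 and 33.5 FPKM in two-cell and 0.208, 1.30 and 0.01 FPKM in zygote M (log2 change 8.47, SE 1.98, limma adjusted p = 0.00698). Without zygote M replicate C its call was lost (adjusted p = 0.0848). Of the 4 red blood cell markers in the table, Hba-a1 made up nearly all of their sum, which was 44.0, 83.6 and 34.3 FPKM in two-cell and at most 1.29 FPKM in zygote M. The other alpha-globin gene, Hba-a2, had 0.234, 0.737 and 0.755 FPKM in two-cell and 0.01 FPKM in each zygote M library. The beta-globin gene Hbb-bt was at 0.01 in all 6 libraries and Hbb-bs reached at most 0.0404 FPKM. Leukocyte markers summed to 1.51 to 4.18 FPKM against 0 to 0.343 FPKM and sperm markers to 7.52 to 7.75 FPKM against 2.97 to 4.07 FPKM, and the part of other cells in these results was not tested.

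**Figure D1:**
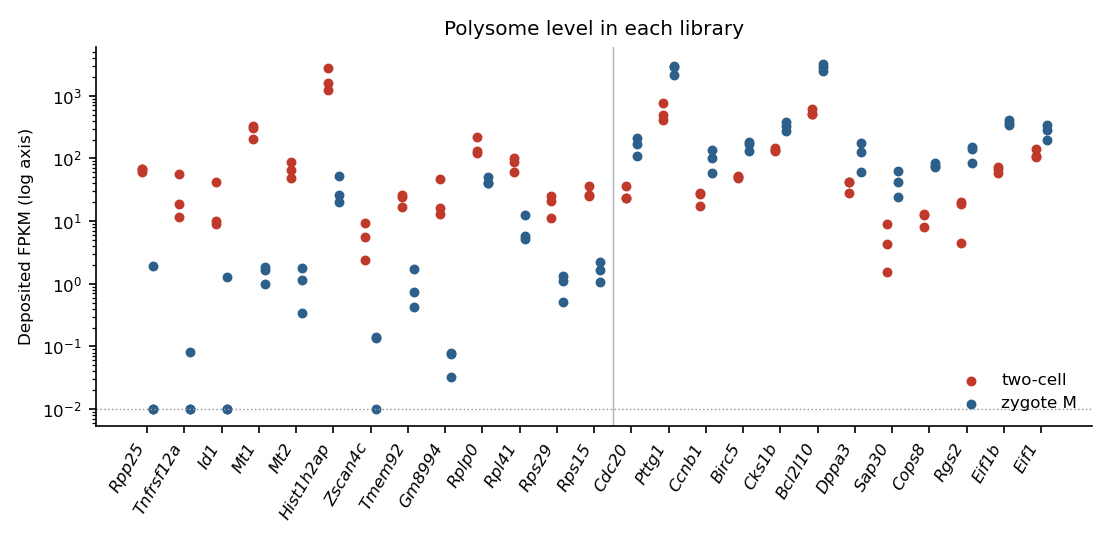
FPKM (log axis) of 25 named genes in each of the 6 polysome libraries, with points coloured by group and a dotted line at the 0.01 offset. The two-cell points of genes such as Rpp25, Tmem92 and Mt1 lie far above those of zygote M, and those of Cdc20, Pttg1 and Bcl2l10 lie below.

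Metallothioneins rose in both measured forms. Mt1 and Mt2 encode small cysteine-rich proteins that bind zinc and copper. Mt1 had 201, 304 and 325 FPKM in two-cell and 1.68, 1.88 and 0.985 FPKM in zygote M (log2 change 7.54, SE 0.72, limma adjusted p = 2.81e-08), and Mt2 had 48.6, 66.0 and 87.6 FPKM against 1.79, 1.16 and 0.347 FPKM (6.19, SE 1.21, limma adjusted p = 0.00137). Both pairs of groups were far apart. The 35 tested stress genes as a list had 3 higher and 1 lower calls (against 3.31% and 2.87% of all genes) and a median of 0.08. The third higher gene was Dnajb9, an ER chaperone, with 1.65, 4.62 and 0.219 FPKM against 0.0397, 0.02 and 0.188 FPKM (limma adjusted p = 0.0269), whose call was lost without two-cell replicate A (0.0827) or B (0.17) or zygote M replicate A (0.107) or B (0.148). Hspe1, the mitochondrial co-chaperonin, fell from 20.4, 21.7 and 22.7 FPKM in zygote M to 3.47, 9.37 and 6.503 FPKM in two-cell (log2 change -1.86, SE 0.46, limma adjusted p = 0.0109), a call lost without two-cell replicate A (0.0829). The heat shock gene Dnajb1 had 119, 111 and 117 FPKM in two-cell and 132, 153 and 169 FPKM in zygote M (limma adjusted p = 0.946).

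The 250 bases upstream of both metallothionein genes are given because these genes moved together and metal response elements, which bind the zinc-sensing factor Mtf1, are known to control them. The core letters searched, TGCACNC and TGCGCNC on either strand, are in capitals, and 1 or the other was present in 25.7% of all RefSeq promoter windows of 300 bases. The Mt1 window held 3 matches, of which the 2 that lie after the start are not printed, and the Mt2 window held 4, of which 1 lies after the start. Windows with at least 3 matches were 1.97% of all and those with at least 4 were 0.517%. The stretches are chr8:94178839-94179088 and chr8:94172368-94172617, plus strand, GRCm38.p6.
Mt1: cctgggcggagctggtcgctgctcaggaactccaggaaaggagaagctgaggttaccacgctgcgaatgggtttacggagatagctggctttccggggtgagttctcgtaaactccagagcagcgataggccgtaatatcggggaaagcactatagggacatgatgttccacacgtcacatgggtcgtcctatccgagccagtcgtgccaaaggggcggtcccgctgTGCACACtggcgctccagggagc
Mt2: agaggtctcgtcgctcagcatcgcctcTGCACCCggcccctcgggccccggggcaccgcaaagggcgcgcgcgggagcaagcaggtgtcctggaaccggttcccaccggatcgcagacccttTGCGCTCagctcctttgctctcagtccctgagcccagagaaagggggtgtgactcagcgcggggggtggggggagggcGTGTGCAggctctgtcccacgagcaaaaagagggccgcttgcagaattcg

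Summed histone messages were higher in two-cell polysomes, although most of the single genes tested were not called. The 82 histone genes in the table summed to 1995, 4180.4 and 2402 FPKM in two-cell and to 459, 531 and 324 FPKM in zygote M. Of 51 tested, 5 rose and none fell (against 3.31% and 2.87% of all genes), with a median log2 change of 1.30, while 46 were not called. Hist1h2ap (chr13:21833026-21833508, minus strand), one of the replication-dependent H2A genes whose messages lack a poly(A) tail in most cells, made up 62.2, 66.0 and 65.2% of the two-cell sums, with 1240.4, 2758 and 1568 FPKM against 25.8, 53.3 and 20.003 FPKM in zygote M (log2 change 5.86, SE 0.53, limma adjusted p = 1.12e-08). For Hist1h2ap, the amount of message and the share of it with a tail were not told apart. Its close relatives Hist1h2ao, Hist1h2an and Hist1h2ae rose as well (limma adjusted p = 0.0119, 0.0373 and 0.0231), at 0.336 to 15.2 FPKM in two-cell and at most 0.226 FPKM in zygote M. Each of these 3 calls was lost without two-cell replicate B (0.0569, 0.16 and 0.0996) and without zygote M replicate C (0.075, 0.106 and 0.111). They were also lost without two-cell replicate A (Hist1h2an 0.0854, Hist1h2ae 0.0584), zygote M replicate A (Hist1h2ao 0.0754, Hist1h2an 0.107) or zygote M replicate B (Hist1h2an 0.0947, Hist1h2ae 0.101). H2afj, which encodes the variant H2A.J, had 13.8, 38.7 and 28.0 FPKM against 2.49, 9.60 and 6.56 FPKM (2.19, SE 0.56, limma adjusted p = 0.0139), lost without two-cell replicate B (0.087) or C (0.0527) or zygote M replicate A (0.141).

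Other histones were not called, and some pointed the opposite way. The linker histone gene Hist1h1a had 209, 359 and 273 FPKM in two-cell and 29.9, 46.9 and 13.2 FPKM in zygote M, and although the groups did not overlap it was not called (log2 change 3.37, SE 1.65, limma adjusted p = 0.286). This SE rests on a spread pooled over all 12 groups. In polysomes of two-cell embryos held in M-phase, Hist1h1a had 66.6, 1.70 and 36.6 FPKM. H2afz, for the variant H2A.Z, had 40.3, 60.9 and 22.3 FPKM against 17.2, 29.3 and 15.7 FPKM (0.93, limma adjusted p = 0.391). H1foo, the oocyte linker histone, had 22.3, 26.9 and 30.1 FPKM against 119, 49.9 and 68.3 FPKM (-1.49, limma adjusted p = 0.235). H3f3b, a replacement H3.3 gene, had 29.4, 34.7 and 30.7 FPKM against 72.2, 50.4 and 65.8 FPKM and passed on its limma adjusted p alone (0.00601), with a log2 change of -0.98 that fell short of 2-fold.

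Of the gene lists examined, that of ribosomal proteins held the most rising genes. Of 83 tested genes for cytosolic ribosomal proteins, 36 rose, 1 fell and 46 were not called, where 3.31% of all genes rose. Their median log2 change was 1.88 (1.84 without the 3 genes at 0.01 throughout zygote M), 67 had a positive change and 54 had all two-cell values above all zygote M values (against 11.5% of all genes). The 87 genes in the table summed to 576, 1011 and 676 FPKM in two-cell and to 257, 328 and 210 FPKM in zygote M. Rplp0, a protein of the stalk of the large subunit, had 123.2, 217 and 130.1 FPKM in two-cell and 40.5, 49.9996 and 41.2 FPKM in zygote M (log2 change 1.79, SE 0.32, limma adjusted p = 0.000404). Rpl41, the smallest ribosomal protein, had 60.3, 87.0 and 102 FPKM against 5.81, 12.7 and 5.16 FPKM (3.48, SE 0.51, limma adjusted p = 3.84e-05). Small-subunit genes had some of the steepest changes. Rps29 had 11.3, 21.1 and 24.8 FPKM against 1.13, 1.31 and 0.508 FPKM (4.31, SE 0.55, limma adjusted p = 4.02e-06), Rps15 had 25.6, 36.8 and 25.7 FPKM against 1.06, 2.20 and 1.64 FPKM (4.21, SE 0.83, 0.00152) and Rps9 had 11.3, 10.8 and 11.7 FPKM against 0.352, 1.26 and 0.372 FPKM (4.36, SE 0.53, 1.81e-06).

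The group was not uniform in level or in replicate support. Rps26 had 6.23, 10.9 and 9.91 FPKM in two-cell and at most 0.26 FPKM in zygote M (limma adjusted p = 4.48e-06), and Rpl38 and Rps3a1 were called at under 2 FPKM in two-cell, against 0.01 in every zygote M library. Rps2 had 29.2, 36.8 and 24.98 FPKM against 3.73, 7.05 and 1.64 FPKM (log2 change 3.09, limma adjusted p = 0.0497), and its call was lost without any 1 library other than zygote M replicate B (0.0956 to 0.242). Rps27l, a paralog of Rps27 known as a target of p53, was the only member to fall, from 84.4, 96.9 and 58.9 FPKM in zygote M to 29.1, 30.3 and 32.7 FPKM in two-cell (-1.35, SE 0.39, limma adjusted p = 0.0349), a call kept only when zygote M replicate C was the library left out (0.0727 to 0.148 otherwise). Among genes not called, Rplp2 had 17.7, 20.1 and 25.3 FPKM against 8.67, 13.4 and 5.73 FPKM (1.25, limma adjusted p = 0.14), Rps27rt had 17.3, 97.1 and 28.6 FPKM against 2.28, 21.3 and 0.443 FPKM (3.71, 0.233) and Rpl35 had 1.01, 1.605 and 1.84 FPKM against 0.462, 1.19 and 0.64 FPKM (1.02, 0.425). The number of rising ribosomal protein genes was 21 without two-cell replicate B, 21 without zygote M replicate C and 23 without zygote M replicate A. The list's median was positive in each of 17 settings tried (0.82 to 2.51). Some of these settings could not move it. The fits of the 6 libraries compared and of the 18 polysome libraries, the replicate block and calls on adjusted p alone change only the spread or the threshold. Ribosomal protein genes have many processed pseudogenes, and how reads were shared with them is not given in the sources used here. Of 891 processed pseudogenes tested, 53 rose (5.95%, against 3.31% of all genes) and 24 fell (2.69%, against 2.87%).

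**Figure D2:**
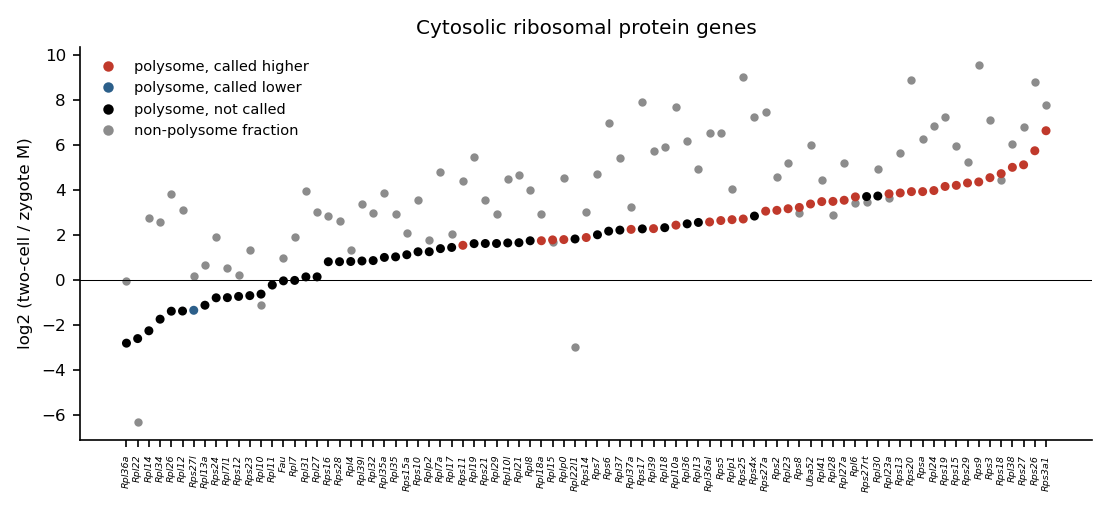
Log2 change from zygote M to two-cell of the 83 tested cytosolic ribosomal protein genes, one position per gene, in polysomes (coloured by call: 36 higher, 1 lower, 46 not called) and in the non-polysome fraction (grey). Most polysome points lie above zero and most grey points lie higher still.

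Messages of ribosomal proteins typically begin with a run of pyrimidines, through which their translation is controlled, and the bases around the annotated start are shown for genes that rose (Rps2, Rps9, Rpl15, Rps26, Rplp0 and Rpl41) and for genes that were not called (Rps27rt and Rplp2). Each 30-base window holds 10 bases before the start and 20 from it, from RefSeq on GRCm38.p6, and capitals mark a C followed by at least 5 further C or T that began within 5 bases before to 12 bases after the start. Such a run was found in 3606 of 32851 promoters (11%) and in 30 of 63 tested ribosomal protein genes with a window (47.6%). Among those that rose it was in 11 of 25 (44%) and among those not called in 19 of 37 (51.4%), which was not tested. The windows are chr17:24720053-24720082 (plus strand), chr7:3704031-3704060 (plus), chr14:18270967-18270996 (minus), chr10:128626487-128626516 (minus), chr5:115559457-115559486 (plus), chr10:128549149-128549178 (minus), chr9:114982720-114982749 (minus) and chr7:141447641-141447670 (plus), in the order printed. Rpl15 rose with a limma adjusted p of 0.0475, which was lost without two-cell replicate B (0.231) or C (0.0893) or zygote M replicate A (0.135) or C (0.216).
Rps2: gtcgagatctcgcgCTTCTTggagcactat
Rps9: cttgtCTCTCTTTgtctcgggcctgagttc
Rpl15: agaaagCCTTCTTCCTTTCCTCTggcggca
Rps26: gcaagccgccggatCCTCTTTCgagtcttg
Rplp0: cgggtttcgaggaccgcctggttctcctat
Rpl41: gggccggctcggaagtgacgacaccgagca
Rps27rt: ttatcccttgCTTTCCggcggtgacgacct
Rplp2: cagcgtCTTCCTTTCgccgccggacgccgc

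Other parts of the translation apparatus were examined as further lists. Among 49 tested translation factors, none rose, 4 fell (against 3.31% and 2.87% of all genes) and the median log2 change was 0.11. The count of falling factors was 0 without zygote M replicate A and 2 without two-cell replicate B or zygote M replicate C, and a fit of the 18 polysome libraries gave 5 higher and 5 lower. Eif1 and Eif1b, closely related factors that set the accuracy of start codon choice, both fell. Eif1b went from 361, 343 and 415 FPKM in zygote M to 66.9, 59.2 and 74.3 FPKM in two-cell (log2 change -2.48, SE 0.66, limma adjusted p = 0.0188), a call lost without two-cell replicate B (0.0646) or zygote M replicate A (0.0598) or C (0.0734). Eif1 went from 339, 194 and 286 FPKM to 109, 106 and 142 FPKM (-1.18, SE 0.24, limma adjusted p = 0.00229), and without zygote M replicate A its change was just under 2-fold (log2 change -0.999, adjusted p = 0.0298). Eif5a, the hypusine-containing factor that helps elongation and termination, went from 149.8, 136 and 78.0 FPKM to 51.8, 65.2 and 37.1 FPKM (-1.22, SE 0.34, limma adjusted p = 0.024), lost without two-cell replicate A (0.0532) or C (0.138) or zygote M replicate A (0.146) or B (0.104). Eif4a2, an RNA helicase, fell from 1.11, 0.783 and 1.08 FPKM to 0.165, 0.0571 and 0.0857 FPKM (limma adjusted p = 0.012), lost without two-cell replicate B (0.0653) or zygote M replicate A (0.0527) or C (0.0522). The elongation factor gene Eef2 had 48.1, 47.0 and 51.0 FPKM in two-cell and 24.2, 22.2 and 23.2 FPKM in zygote M, and although the groups did not overlap it was not called (1.07, SE 0.62, limma adjusted p = 0.394). Its SE rests on the spread pooled over all 12 groups and not on these 6 libraries alone.

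Mitochondrial ribosomal proteins, whose genes are nuclear, had 1 higher and 3 lower calls of 72 tested (against 3.31% and 2.87% of all genes) and a median log2 change of -0.90. The lower calls numbered 1 without zygote M replicate A or C and 5 without two-cell replicate A. Mrpl18 fell from 32.6, 29.4 and 21.2 FPKM to 6.15, 5.87 and 2.73 FPKM (log2 change -2.56, SE 0.65, limma adjusted p = 0.0133), which was lost without two-cell replicate C (0.086) or zygote M replicate A (0.0653). Mrpl34 rose from 18.8, 31.4 and 28.0 FPKM to 46.7, 117 and 76.4 FPKM (1.55, SE 0.42, limma adjusted p = 0.0202), lost without two-cell replicate B (0.137) or C (0.0603) or zygote M replicate A (0.125) or C (0.0518). Of 76 ribosome biogenesis genes, 2 rose, a share close to that of all genes, none fell and the median was -0.01. Nhp2, a core protein of H/ACA small nucleolar RNPs, had 21.3, 28.1 and 21.8 FPKM against 5.10, 7.95 and 4.20 FPKM (2.09, SE 0.52, limma adjusted p = 0.0117), lost without two-cell replicate B (0.053) or zygote M replicate A (0.0504) or C (0.0705). Nop16, a nucleolar protein of large-subunit assembly, had 1.90, 5.20 and 3.98 FPKM and was at 0.01 in all of zygote M (limma adjusted p = 0.000159). Nip7, also of ribosome assembly, had 6.59, 11.9 and 8.90 FPKM against 15.2, 14.3 and 12.8 FPKM and was not called (-0.67, limma adjusted p = 0.486). No aminoacyl-tRNA synthetase gene was called by limma among 20 tested, with 0 of them at an unadjusted p under 0.05 (against 1405 of all 7967 genes) and a median of -0.29.

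Several messages for the core machinery of mitosis fell. Of 58 tested genes for mitotic cyclins, the spindle checkpoint and the anaphase-promoting complex, none rose and 6 fell (against 2.87% of all genes), with a median log2 change of -1.14. The 71 genes in the table summed to 4259.5, 3134 and 4086 FPKM in zygote M and to 1065, 1374 and 936 FPKM in two-cell. Cdc20 (chr4:118432901-118437353, minus strand), the activator of the complex that triggers anaphase, had 214, 111 and 172 FPKM in zygote M and 22.98, 35.9 and 23.4 FPKM in two-cell (-2.58, SE 0.36, limma adjusted p = 1.64e-05). Pttg1 (chr11:43420250-43426252, minus strand), the securin that the complex destroys, had 2939, 2166 and 2846 FPKM in zygote M and 495, 754 and 415 FPKM in two-cell (-2.29, SE 0.37, limma adjusted p = 0.000125). Ccnb1 (chr13:100778650-100786571, minus strand), for cyclin B1, had 102, 57.6 and 137 FPKM in zygote M and 27.7, 27.0 and 17.3 FPKM in two-cell (-1.99, SE 0.42, limma adjusted p = 0.00316). Birc5, for survivin of the chromosomal passenger complex, had 185, 133 and 169.9 FPKM in zygote M and 48.0, 51.1 and 52.0 FPKM in two-cell (-1.68, SE 0.36, limma adjusted p = 0.00325). For each of these genes the groups were separate and the call was kept without any 1 library.

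The last members to fall were less firm. Cks1b, a small subunit of cyclin-dependent kinases, had 388, 270.2 and 324 FPKM in zygote M and 145, 132 and 139 FPKM in two-cell (log2 change -1.22, SE 0.36, limma adjusted p = 0.0407), and its call was lost without any 1 of the 6 libraries (0.0559 to 0.176). Fbxo43, also known as Emi2, which inhibits the anaphase-promoting complex during the arrest of the egg, had 4.47, 1.80 and 4.25 FPKM in zygote M and 0.135, 1.23 and 0.247 FPKM in two-cell (-3.23, limma adjusted p = 0.0231). It was lost without two-cell replicate A (0.133) or C (0.0916) or zygote M replicate A (0.108) or C (0.101). Ccnb2 and Cdk1 were not called (log2 change -3.00 and -1.39, limma adjusted p = 0.213 and 0.215), nor was Fzr1, the other activator of the complex, with 41.0, 77.6 and 31.7 FPKM in two-cell and 39.2, 61.6 and 44.3 FPKM in zygote M (0.997). The number of falling genes in the list was 4 without two-cell replicate C, zygote M replicate A or zygote M replicate C.

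Among 29 centromere and kinetochore genes none rose and 2 fell (against 2.87% of all genes), with a median of -0.53, close to that of all genes. Neither fall was called without two-cell replicate B or C or zygote M replicate A or C. Cenps, of the histone-fold complex with Cenpx, had 14.8, 15.95 and 14.3 FPKM in zygote M and 5.32, 5.34 and 3.81 FPKM in two-cell (log2 change -1.65, limma adjusted p = 0.037), a call lost without any 1 library (0.0636 to 0.138). Cenph, of the inner kinetochore, fell at under 1 FPKM (limma adjusted p = 0.0414, and 0.127 to 0.216 without those 4 libraries). Cenpa, the centromeric H3, had 8.67, 3.66 and 7.43 FPKM in two-cell and 10.8, 6.96 and 9.52 FPKM in zygote M (-0.53, limma adjusted p = 0.702), with overlapping groups. Of 54 genes for the G1/S transition and DNA replication, only Gins4, a subunit of the replicative helicase, was called. It fell from 25.3, 24.6 and 33.0 FPKM to 2.504, 4.06 and 1.36 FPKM (-3.51, SE 0.94, limma adjusted p = 0.0201), which was lost without two-cell replicate C (0.0989) or zygote M replicate A (0.0609), B (0.0502) or C (0.0803). E2f1, a regulator of that transition, had 115, 167 and 114 FPKM against 88.1, 162 and 72.0 FPKM (limma adjusted p = 0.903).

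Genes of the oocyte had calls in both directions. Of 55 tested oocyte and maternal-effect genes, 1 rose and 3 fell (1.82% and 5.45%, against 3.31% and 2.87% of all genes), and the median log2 change was -0.45. This median was -0.20 without two-cell replicate B and -0.67 without zygote M replicate B. Without zygote M replicate A only 1 fell, and the rise was lost in all but one of the fits that left out a library. Bcl2l10 (chr9:75347758-75351633, plus strand), a BCL2 family member abundant in oocytes, had 3181, 2499 and 2905 FPKM in zygote M and 507, 621 and 507 FPKM in two-cell (-2.39, SE 0.58, limma adjusted p = 0.00927), and its call was kept without any 1 library. Dppa3, which protects the maternal genome from loss of DNA methylation, had 178, 61.7 and 126 FPKM in zygote M and 42.8, 28.5 and 42.2 FPKM in two-cell (-1.58, SE 0.38, limma adjusted p = 0.00981), lost without two-cell replicate B (0.0603) or zygote M replicate A (0.105) or C (0.0522). Npm2, the nucleoplasmin of the egg, rose from 4.76, 4.59 and 4.88 FPKM to 15.3, 19.6 and 26.0 FPKM (2.06, SE 0.55, limma adjusted p = 0.0199), and this call was kept only when two-cell replicate A was the library left out (0.0569 to 0.093 otherwise). Ooep, of the subcortical maternal complex, had 236, 249.8 and 290.5 FPKM in two-cell and 113, 95.5 and 101 FPKM in zygote M. Its groups did not overlap, but it just missed the threshold (1.33, SE 0.42, limma adjusted p = 0.0553). Zar1, a binder of stored messages, had 37.4, 33.5 and 18.4 FPKM against 91.0, 69.4 and 53.6 FPKM (-1.29, limma adjusted p = 0.285), and the kinase Mos, which holds the egg in metaphase, had 15.99, 24.8 and 11.1 FPKM against 13.2, 7.74 and 15.6 FPKM (0.49, 0.922). None of 40 genes for storage and clearance of maternal messages was called by limma, with 4 of them at an unadjusted p under 0.05 (as were 1405 of all 7967 genes) and a list median of -0.53.

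Early embryo transcription factors had 1 higher and 3 lower calls of 27 tested (against 3.31 and 2.87% of all genes) and a median log2 change of -1.07. The lower calls numbered 1 without two-cell replicate A, zygote M replicate A or zygote M replicate C. Obox2, of the oocyte-specific homeobox family, had 41.9, 17.1 and 42.4 FPKM in zygote M and 3.88, 4.11 and 6.48 FPKM in two-cell (-2.73, SE 0.57, limma adjusted p = 0.00256), and was kept without any 1 library. Dppa4 rose from 0.01, 0.01 and 0.201 FPKM to 0.894, 0.362 and 1.84 FPKM (limma adjusted p = 0.0393), lost without two-cell replicate A (0.0854) or C (0.148) or zygote M replicate A (0.192) or B (0.176). Gata3 and Gata4, of the GATA family, fell at under 1 FPKM (limma adjusted p = 0.023 and 0.0322), and both were lost without two-cell replicate A (0.138 and 0.137) and zygote M replicate A (0.12 and 0.141). Gata3 was also lost without two-cell replicate B (0.128) or zygote M replicate C (0.129), and Gata4 without two-cell replicate C (0.111) or zygote M replicate B (0.0921) or C (0.0539). Pou5f1, the pluripotency factor Oct4, had 75.8, 101 and 56.6 FPKM in two-cell and 144, 179.5 and 300.5 FPKM in zygote M and was not called (-1.39, SE 1.23, limma adjusted p = 0.639).

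Other strong decreases fell on genes of varied function. Unc50 went from 49.0, 41.3 and 32.1 FPKM in zygote M to 3.36, 1.80 and 4.12 FPKM in two-cell (log2 change -3.78, SE 0.84, limma adjusted p = 0.00455). Sap30, of the Sin3 histone deacetylase complex, went from 62.5, 24.6 and 41.3 FPKM to 8.95, 4.33 and 1.55 FPKM (-3.35, SE 0.60, limma adjusted p = 0.000505). Gch1, which makes the first step of tetrahydrobiopterin synthesis, went from 19.3, 20.1 and 14.99 FPKM to 2.72, 2.22 and 2.04 FPKM (-2.96, SE 0.46, limma adjusted p = 8.67e-05). In each of these the highest two-cell library lay far below the lowest of zygote M. Cops8, a subunit of the COP9 signalosome, went from 76.1, 72.3 and 85.4 FPKM to 12.5, 8.05 and 13.0 FPKM (-2.83, SE 0.59, limma adjusted p = 0.00261), and Tmem42, a membrane protein, from 34.4, 54.2 and 21.5 FPKM to 3.499, 5.63 and 3.94 FPKM (-3.00, SE 0.62, 0.00213). These 5 calls were kept without any 1 library.

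Other genes of the top 10 lost their call when libraries were left out. Bloc1s4, of the complex that forms lysosome-related organelles, had 28.7, 29.5 and 27.0 FPKM in zygote M and 4.001, 0.01 and 0.0511 FPKM in two-cell (limma adjusted p = 0.00753, and 0.0785 without two-cell replicate B). Rgs2, a brake on G-protein signalling, had 142, 83.6 and 154 FPKM in zygote M and 19.998, 4.54 and 18.5 FPKM in two-cell (limma adjusted p = 0.0256), lost without two-cell replicate B (0.157) or zygote M replicate A (0.0958) or C (0.103). Rln3, for the peptide relaxin-3, had 53.8, 68.3 and 54.3 FPKM in zygote M and 4.14, 24.7 and 6.20 FPKM in two-cell (limma adjusted p = 0.0154), lost without two-cell replicate A (0.0959) or C (0.0708) or zygote M replicate B (0.0587). Zfyve21 had 39.6, 37.5 and 35.3 FPKM in zygote M and 5.98, 6.63 and 2.91 FPKM in two-cell (limma adjusted p = 0.0462), lost without any 1 library (0.0734 to 0.169). Gins4 completes the 10. Spata31d1d and Nxnl2 were at 0.01 in every two-cell library, from 1.13 to 2.498 and from 1.35 to 3.06 FPKM in zygote M (limma adjusted p = 0.00455 and 0.00688). Nudt19 and Ly6a were also at 0.01 throughout two-cell (0.0275 and 0.0377) but lost the call without any 1 library (0.0652 to 0.0937 and 0.0821 to 0.114).

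Large housekeeping complexes had calls in both directions, to be read beside the 3.31% higher and 2.87% lower of all genes. Of 74 nuclear-encoded genes for oxidative phosphorylation, 3 rose and 3 fell, with a median of -0.14, and 1 fell without any 1 of the zygote M libraries. The complex I gene Ndufa2 rose from 3.66, 3.55 and 2.25 FPKM to 15.8, 26.5 and 19.2 FPKM (log2 change 2.70, SE 0.39, limma adjusted p = 3.1e-05) and the complex III gene Uqcrq from 4.65, 6.66 and 3.61 FPKM to 16.9, 37.4 and 34.4 FPKM (2.53, SE 0.48, 0.000963), whereas Atp5b, the catalytic subunit of ATP synthase, fell from 129.7, 87.7 and 135 FPKM to 34.0, 39.7 and 28.3 FPKM (-1.77, SE 0.39, 0.00455). Cox5a, of cytochrome c oxidase, fell as well (limma adjusted p = 0.0266), a call kept only when two-cell replicate B was the library left out (0.0672 to 0.172 otherwise). Of 64 spliceosome genes, 5 rose and 3 fell, with a median of -0.40, and 1 fell without zygote M replicate A or C. Without zygote M replicate C only 3 rose, and Snrpc, of the U1 particle, was lost there (limma adjusted p = 0.0567, from 0.0108). Within its SF3b complex, Sf3b5 rose from 3.69, 8.24 and 4.15 FPKM to 19.6, 25.3 and 22.4 FPKM (2.15, SE 0.43, limma adjusted p = 0.00165) and Phf5a fell from 98.6, 86.9 and 84.6 FPKM to 20.9, 34.4 and 29.5 FPKM (-1.70, SE 0.36, 0.0031). Snrpd2, a core Sm protein, rose from 0.913, 0.199 and 0.296 FPKM to 5.80, 13.6 and 7.35 FPKM (4.47, SE 0.88, limma adjusted p = 0.0014). The groups of Ndufa2, Uqcrq, Atp5b, Sf3b5, Phf5a and Snrpd2 were separate. Among the other falls, Snrpb2 (limma adjusted p = 0.0249) was lost without two-cell replicate B (0.0916) or C (0.0589) or zygote M replicate A (0.121) or C (0.0761), and Txnl4a (0.0295) without two-cell replicate C (0.222) or zygote M replicate A (0.0502), B (0.124) or C (0.0968). Lsm7, a member of the ring that binds U6 snRNA, was not called, with 7.71, 8.73 and 4.90 FPKM against 11.9, 13.2 and 5.997 FPKM (-0.50, 0.742).

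In the list of Mediator, general transcription and elongation factors 2 of 64 genes rose and 1 fell (against 3.31% and 2.87% of all genes), with a median of -0.66. Med29, a Mediator subunit, rose from 0.262, 0.465 and 0.386 FPKM to 8.17, 8.88 and 14.6 FPKM (log2 change 4.82, SE 0.76, limma adjusted p = 0.000108), and Supt4a, of the elongation factor DSIF, from 5.55, 6.36 and 4.01 FPKM to 18.1, 24.8 and 21.9 FPKM (2.04, SE 0.51, 0.0125). The Supt4a call was lost without two-cell replicate B (0.0536) or zygote M replicate C (0.0745). The gene that fell was Med10, another Mediator subunit (limma adjusted p = 0.045), whose call was kept only when zygote M replicate B was the library left out (0.0872 to 0.215 otherwise). Elob, the elongin B gene, rose from 0.248, 0.987 and 0.26 FPKM to 2.91, 6.15 and 3.87 FPKM (3.36, SE 0.69, limma adjusted p = 0.00216). None of 20 RNA polymerase subunit genes was called by limma, with 4 of them at an unadjusted p under 0.05 (against 1405 of all 7967) and a median of -0.02. Polr2i, a subunit of RNA polymerase II, had 12.1, 16.9 and 5.88 FPKM against 10.8, 11.9 and 9.87 FPKM (-0.02, limma adjusted p = 0.992). Of 13 genes for the chaperonin CCT and its partner prefoldin, only Pfdn5, a prefoldin subunit, was called, falling from 50.8, 69.5 and 47.4 FPKM to 8.76, 18.2 and 16.8 FPKM (-1.99, SE 0.41, limma adjusted p = 0.00221). The proteasome had 2 higher and 2 lower calls of 42 tested (against the same shares), none of which was kept without two-cell replicate C, when the list had 0 calls in either direction. Chromatin and DNA methylation genes had 1 lower of 44 (Dppa3) and tubulins 1 lower of 18 (Tube1). Lamina and pore genes had 1 lower of 27, Nup85, with a list median of -1.06, and its limma adjusted p of 0.0319 was kept under the threshold only when two-cell replicate A was the library left out (0.0536 to 0.209 otherwise).

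**Figure D3:**
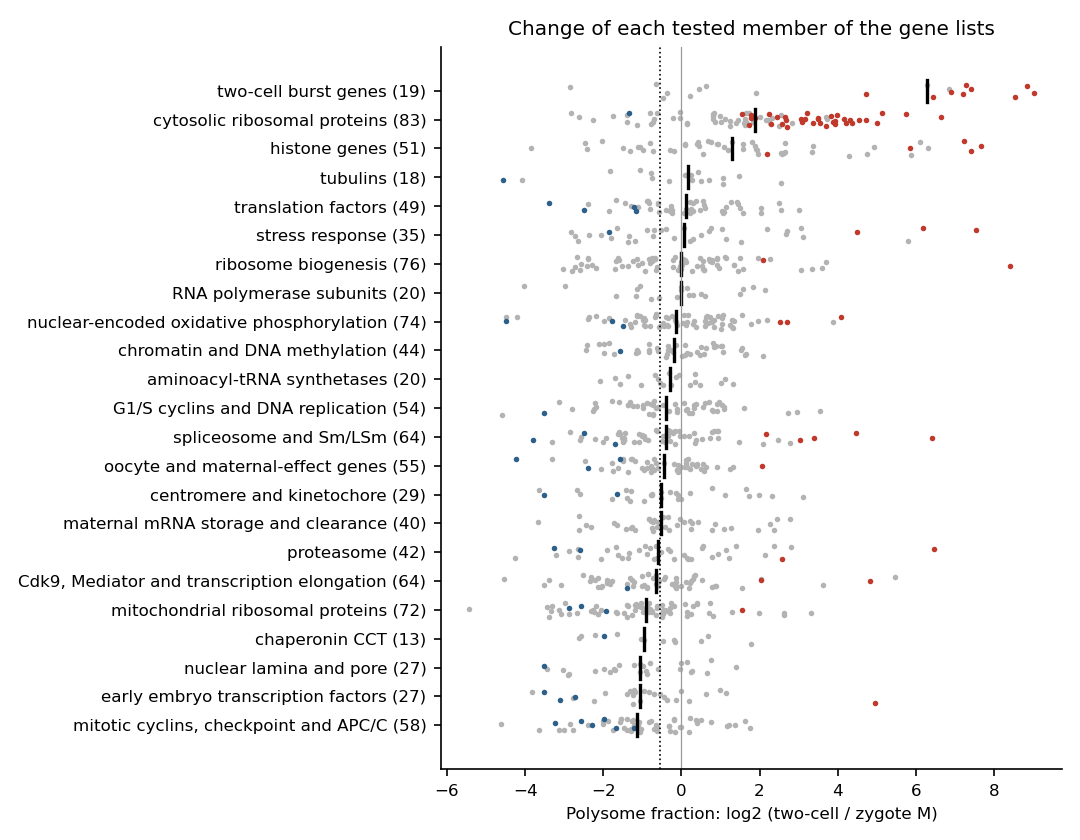
Log2 change from zygote M to two-cell in polysomes of every tested member of the gene lists, one row per list, with points coloured by call, a black bar at the list's median and a dotted line at the median of all genes tested (-0.56). The medians of the two-cell burst (6.29), ribosomal protein (1.88) and histone (1.30) lists lie right of the line, as do those of most other lists. That of the mitotic list (-1.14) lies left of it. So do those of early embryo transcription factors (-1.07), lamina and pore (-1.06), chaperonin CCT (-0.97) and mitochondrial ribosomal proteins (-0.90), among others.

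The non-polysome fraction of the same gradients was compared in the same way. There 782 genes (9.82%) were higher and 1040 (13.1%) were lower in two-cell than in zygote M, with a median log2 change of -0.58. The relative depth of the NP libraries of both stages ranged from 0.647 (two-cell replicate B) to 1.16 (zygote M replicate C). Two-cell NP had the widest replicate spread of the 12 groups (median SD on the log2 scale 1.643). Of the 264 genes that rose in polysomes, 252 were also among the 782 that rose outside them and none was lower there. Of the 229 that fell in polysomes, 95 were among the 1040 lower outside them, 2 were higher and 192 had a negative change. All 9 rising burst genes and all 36 rising ribosomal protein genes also rose in the NP fraction, and 2 of the 6 falling mitotic genes also fell there. The ribosomal protein list had 64 higher and 1 lower calls and a median of 3.99 in NP, and the burst list had a median of 7.16. Mt1 rose by 10.54 on the log2 scale in NP.

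The difference between both changes was tested as an interaction. The polysome change was above the NP change for 111 genes (1.39%) and below it for 109 (1.37%). Of the genes that rose in polysomes, 1 had the higher interaction, and of those that fell 19 had the lower. The interaction contains the polysome change, so these counts are not independent of the polysome calls. Genes that went the opposite way were not counted. Rps9, Med29, Aprt and Elob rose in polysomes with a lower interaction, and Tmem42 fell with a higher one. Among ribosomal proteins 14 of 83 had a polysome change below the NP change and none above, with a median difference of -2.05. Rplp0 changed by 1.79 in P and by 4.52 in NP (difference -2.72, limma adjusted p = 0.000706). For Dppa3, Eif1 and Elob the polysome change was also below the NP change (difference -2.0045, -1.28 and -3.71, limma adjusted p = 0.0439, 0.0409 and 0.0377). With the gradient as a block in a fit of the 12 libraries alone, no gene was called for the interaction by limma, with 979 of 7967 at an unadjusted p under 0.05.

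**Figure D4:**
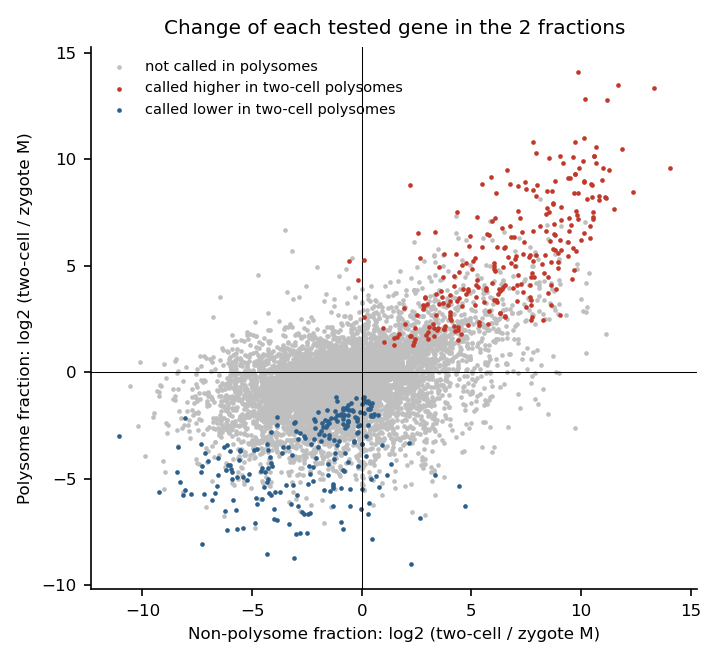
Log2 change from zygote M to two-cell of all 7967 genes tested, in the non-polysome fraction (x axis) and in polysomes (y axis), with the polysome calls coloured (264 higher, 229 lower). Nearly all higher genes lie right of zero on the x axis, while 192 of the 229 lower genes lie left of it.

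The neighbouring stages place these changes in the course of development, as levels without a test. Cdc20 stood at 2.02, 3.37 and 1.65 FPKM in untreated zygotes (replicates B, C and D), far below the 111 to 214 FPKM of zygote M, and at 82.9, 56.8 and 74.3 FPKM in two-cell embryos held in M-phase. Pttg1 was at 259, 105 and 232 FPKM in zygotes and at 86.0, 99.0 and 206 FPKM in two-cell M, so that its level in zygote M, 2166 to 2939 FPKM, was the highest of these 4 stages. Bcl2l10 likewise had 379.6, 393 and 433 FPKM in zygotes and 18.99, 7.03 and 115 FPKM in two-cell M. Ooep was at 669, 847 and 969 FPKM in zygotes, above zygote M and two-cell, and at 19.4, 21.0 and 49.6 FPKM in two-cell M. Of the 264 genes that rose, 216 also had all two-cell values above all zygote values, as 16.6% of all genes tested did, and 48 did not. Both comparisons share the two-cell libraries. Of the 229 that fell, 92 had all zygote M values above all zygote values (19.4% of all genes), and these share the zygote M libraries. Mt1 had at most 0.903 FPKM in zygotes and 1014, 786 and 659.7 FPKM in two-cell M, and Hist1h2ap had 10.6, 14.9 and 18.7 FPKM in zygotes and 2559, 3174 and 3428 FPKM in two-cell M. Rpl41 had 2.51, 3.49 and 4.49 FPKM in zygotes and 1694, 1151 and 729 FPKM in two-cell M, and the summed ribosomal protein messages had 278 to 333 FPKM in zygotes and 3827 to 5445 FPKM in two-cell M. Tmem92 had 0.402 to 1.36 FPKM in zygotes and 14.4, 8.36 and 15.96 FPKM in two-cell M, below its two-cell level of 16.7 to 25.7 FPKM.

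Some genes that rose were low in zygote M alone or did not stay high. Rps9 had 7.76, 11.7 and 11.2 FPKM in zygotes, which overlapped the 10.8 to 11.7 FPKM of two-cell. Mrpl34 likewise had 48.1, 55.2 and 67.3 FPKM in zygotes, within its two-cell range of 46.7 to 117 FPKM. Npm2 had 9.84, 11.9 and 12.3 FPKM in zygotes and 4.97, 5.05 and 9.61 FPKM in two-cell M, and Pramef25 had 0.861, 0.292 and 12.3 FPKM in two-cell M. The 41 burst genes summed to 124, 106 and 108 FPKM in zygotes, to 226, 115 and 227 FPKM in zygote M, to 375, 295 and 234 FPKM in two-cell and to 69.1, 141 and 336 FPKM in two-cell M, so that the range of the two-cell M libraries overlapped that of each other stage.

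**Figure D5:**
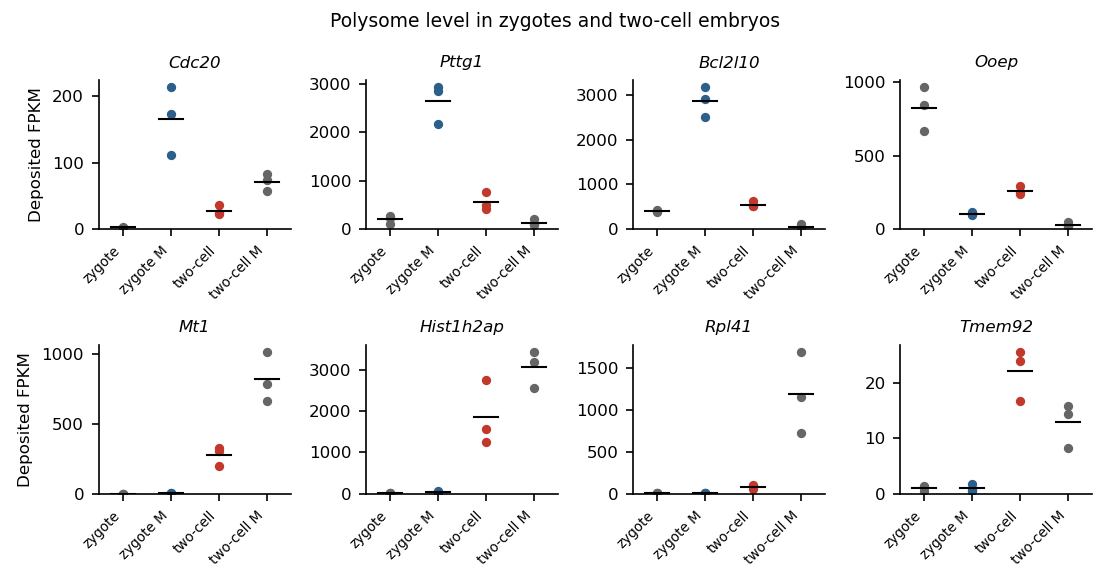
Polysome FPKM (linear axis, scaled for each gene) of 8 genes in the 3 libraries each of 4 stages (zygote, two-cell and the M-phase sample of either). Cdc20, Pttg1 and Bcl2l10 are highest in zygote M, whereas Mt1 and Rpl41 are low up to zygote M and highest in two-cell M. Hist1h2ap is also low up to zygote M, but its two-cell and two-cell M points overlap.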

How the data were processed

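Polysome profiling was followed by RNA-seq in 36 libraries, of which 6 were compared here with the 6 of the matching NP fraction and the remaining stages as context. Gradients of biological triplicates gave the P and NP pools, cDNA was made with the SMART-seq v4 kit and libraries with Nextera XT. Per the study's methods and its processing notes, the authors trimmed reads with Trim Galore 0.4.1, aligned them to GRCm38 with STAR 2.5.3a and computed values in Partek. They deposited normalized FPKM for 23125 genes, with 0.01 added to each value. No read counts were used, and no genes of the mitochondrial chromosome are in the table. The methods name RefSeq genes, whereas the table's gene annotation is Ensembl's. Of 38 samples, 2 zygote samples labelled A have no column here and were not analysed here.

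The deposited FPKM were log2-transformed with nothing added and modelled in limma 3.58.1 (R 4.3.3) over 12 groups (stage by fraction) and all 36 libraries, so that each gene has 1 estimate of spread, with an empirical Bayes trend. The 7967 genes whose geometric mean in the 36 libraries reached 0.1 FPKM were tested, two-sided, with Benjamini-Hochberg adjustment over all of them, and called at an adjusted p under 0.05 and a fold beyond 2. The contrasts were two-cell minus zygote M in P, the same in NP, and their difference. Alternatives were an added 0.1 or 1 FPKM, other filters, quantile normalization, fits on fewer libraries, a replicate block, protein-coding genes alone and leaving out each library in turn. Median centring was chosen after seeing the data.

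Named genes are, in each direction, the 10 protein-coding genes called with the largest change whose 6 values averaged 10 FPKM or more, without overlap and not at 0.01 throughout a group; up to 4 called genes at 0.01 throughout a group; the called members of each list with the highest means, up to 2 in each direction, and its highest member not called, some of which are left out where a list holds few calls; genes that the study names; and, in each direction, the 5 called genes with the largest interaction whose 12 values averaged 10 FPKM or more. Further list members, Sertad1 and Eef2 among them, are named as examples with their values seen. The comparison, the gene lists and the named genes were chosen with earlier results of these data known.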

Additional observations from a re-analysis of the deposited data

Results flagged for a closer look

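The genes below had the largest differences between the polysome and the non-polysome change among abundant genes called for that difference, in limma's interaction contrast. With the gradient as a block none of them, and no other gene, was called. The cause of these differences was not tested.

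In the first set the NP fraction of two-cell embryos held almost none of the message, while polysomes changed less. Fam84a had 19.04, 25.9 and 17.3 FPKM in zygote M NP and 0.01, 0.0245 and 0.01 FPKM in two-cell NP, but 10.8, 12.2 and 12.1 FPKM in zygote M polysomes and 5.06, 11.5 and 7.14 FPKM in two-cell polysomes (difference of log2 changes 9.92, limma adjusted p = 1.6e-05). Slc16a13, a monocarboxylate transporter, had 19.8, 21.7 and 16.4 FPKM in zygote M NP and at most 0.0438 FPKM in two-cell NP, against 15.8, 15.5 and 22.5 FPKM and 9.38, 7.30 and 13.4 FPKM in polysomes (8.46, limma adjusted p = 0.000157). Rnf25, a ubiquitin ligase, had 19.5, 9.01 and 8.72 FPKM in zygote M NP and at most 0.198 FPKM in two-cell NP (7.38, limma adjusted p = 0.00267), and Gpr137 had 3.37, 14.2 and 14.2 FPKM and then 0.0961, 0.0272 and 1.39 FPKM (7.32, 0.0377). Neither changed by a called amount in polysomes. Tmem42 fell in both fractions, with a log2 change of -3.005 in polysomes and of -11.08 in NP (8.08, limma adjusted p = 1.94e-06).

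In the other set the NP fraction gained far more than polysomes. Gpank1 went from 0.0635, 0.01 and 3.85 FPKM to 34.8, 34.5 and 20.6 FPKM in NP, and had 8.63, 10.2 and 4.59 FPKM in zygote M polysomes and 4.69, 6.27 and 9.63 FPKM in two-cell polysomes (-7.93, limma adjusted p = 0.00267). Snapc2, a subunit of the complex that starts transcription of small nuclear RNA genes, went from at most 0.0638 FPKM to 14.8, 40.4 and 33.6 FPKM in NP (-7.20, limma adjusted p = 0.044). Aprt, which salvages adenine, rose in polysomes from 2.34, 4.85 and 2.79 FPKM to 13.8, 14.6 and 26.8 FPKM and in NP from 0.0495, 0.167 and 1.72 FPKM to 47.9, 83.4 and 98.3 FPKM (-5.77, limma adjusted p = 0.00219). The polysome call of Aprt (limma adjusted p = 0.0398) was kept only when zygote M replicate B was the library left out (0.0611 to 0.158 otherwise). Rps9 and Med29 rose in both fractions, by 4.36 and 4.82 in polysomes and by 9.57 and 9.66 in NP (-5.21 and -4.84, limma adjusted p = 0.000117 and 0.0118).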

How the results depend on the processing

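The numbers of genes higher and lower in two-cell polysomes (264 and 229) depended on the filter, the scaling and the libraries fitted. They were 513 and 401 with no minimum, 481 and 360 with quantile normalization, and 421 and 532 in a fit of the 18 polysome libraries. In a fit of the 6 libraries compared 432 were lower, and among protein-coding genes alone, which are fewer, 153 were higher. Leaving out 1 library gave 180 to 216 higher and 107 to 214 lower genes, the lowest counts of lower genes being 107 without zygote M replicate A and 115 without zygote M replicate C. The interaction counts (111 higher, 109 lower) were 45 and 38 with quantile normalization, 49 and 25 in a fit of the 12 libraries of both fractions, and 0 and 0 with the gradient as a replicate block. Leaving out 1 library gave 57 to 239 and 55 to 142 interaction calls. The extremes were 239 higher without the two-cell NP replicate C, and 57 and 61 higher without zygote M polysome replicates B and A, where 56 and 55 were lower. Median centring, which was added after seeing the data, left the higher count at 265 and gave 171 lower, and genes whose 6 values averaged 1 FPKM or more gave 301 and 169. The all-gene median of -0.56 was -0.15 after quantile normalization, -0.40 after median centring and -0.11 with 1 FPKM added.

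The main fit did not pair the replicates by letter. In polysomes the residual correlations of same-letter pairs were 0.0393, 0.128 and 0.0227, and those of different-letter pairs were -0.102 to 0.0857. In NP the same-letter pairs had -0.0061 to 0.084 and the different-letter pairs -0.0985 to 0.0258. Whether the letters mark pairs was not tested. With the replicate block 255 genes were higher and 283 lower. No called named gene reversed its sign. Of the 107 named calls, however, 26 were weaker with the replicate block, 21 in the fit of the 6 libraries compared and 20 with 1 FPKM added. With no minimum 10 were weaker, and with quantile normalization 9. Which direction held more calls did turn. Lower calls outnumbered higher ones in the fits of 6 libraries (307 and 432) and of 18, with the block, with 1 FPKM added (294 and 336) and among protein-coding genes alone (153 and 165). The medians of 9 other lists, for the G1/S transition, translation factors, aminoacyl-tRNA synthetases, oxidative phosphorylation, RNA polymerase, the spliceosome, ribosome biogenesis, stress and chromatin, changed sign in at least 1 setting. The medians of the burst, ribosomal protein and histone lists stayed positive and that of the mitotic list negative in each of 17 settings, while their calls ranged from 6 to 18, 17 to 47, 1 to 11 and 4 to 13. The fits of the 6 libraries and of the 18, the block and calls on adjusted p alone could not move a median, whereas leaving out a library could. The tubulin median also stayed positive, and those of the remaining lists and of all genes stayed negative, as that of the mitotic list did. The burst median ranged from 1.87 to 6.89. Of 107 named genes called, 54 kept the call without any 1 library, and 6 lost it without each. Read depth was not known, and precision rests on a spread pooled over all 12 groups, whose median SD on the log2 scale ranged from 0.234 to 1.643.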

Other observations

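Calls among non-coding transcripts in polysomes are given beside the 3.31% higher and 2.87% lower of all genes. Of 196 lincRNAs tested, 13 rose and 14 fell, with a median log2 change of -0.87. Of 130 antisense RNAs, 5 rose and 5 fell, with a median of -0.73, and whether the counting used strand is not given in the sources used here. Of 90 transcripts that the annotation marks as needing experimental evidence, 8 rose and 1 fell, with a median of 0.72. Of the 53 processed pseudogenes that rose in polysomes, 48 also rose in the NP fraction.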
